A study of Mus musculus with 6 samples.

Results

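The ADAM and ADAMTS proteases were followed through 10 genes picked by name, Adam9, Adam10, Adam12, Adam15, Adam17, Adam19, Adamts1, Adamts2, Adamts5 and Adamts12, among 35275 rows of the deposited gene table. These genes were chosen with earlier results of these data known. All 10 were found and all 10 passed the filter on low values. RNA came from mouse 3T3 fibroblasts, an immortalised embryonic line, in 6 libraries: 3 from cells with an NNMT overexpression construct and 3 from cells with a control construct. NNMT is nicotinamide N-methyltransferase, which transfers the methyl group of S-adenosylmethionine to nicotinamide. Both groups were kept for 48 h in DMEM without methionine to which 10 µM methionine and 10% dialyzed FBS had been added. The comparison asks which of these genes differ with NNMT at that methionine level. The labels call the libraries biological replicates but name neither the construct's promoter nor separate transductions within a group. The p-values thus describe the spread among these cultures alone, and differences between the starting populations of the groups cannot be told apart from an NNMT difference.

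ADAM proteins are membrane-anchored zinc metalloproteases that cut the extracellular part off other surface proteins, a step called ectodomain shedding. ADAM10 and ADAM17 release, among others, the Notch ectodomain, the amyloid precursor protein ectodomain, tumour necrosis factor and the ligands of the epidermal growth factor (EGF) receptor. ADAMTS proteins are secreted, carry thrombospondin type 1 motifs and act on the matrix. Among them, ADAMTS1 and ADAMTS5 cut large proteoglycans such as versican, and ADAMTS2 removes the amino-terminal propeptide of some fibrillar procollagens. Fibroblasts are among the cells that make these enzymes.

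Levels are FPKM, counts of fragments or reads scaled to gene length and library size, so that genes can be compared per length. Per-library values run in the order NNMT library without a replicate number, NNMT replicate 2, NNMT replicate 3, and control replicates 1, 2 and 3. Means are ± SD with n = 3 per group. Log2 fold changes are NNMT minus control on log2(FPKM + 1), which makes changes of weakly expressed genes look smaller, with limma's p adjusted over 10882 genes and called below 0.05. Recovered reads summed to between 31622601 and 39982568 per library, and a single read on 1 kb was worth 0.0250 to 0.0316 FPKM. Nnmt itself stood at 15.7, 15.03 and 18.3 FPKM in the NNMT libraries, against 7.60, 5.25 and 6.51 FPKM in the control libraries (log2 fold change 1.23, SE 0.108, limma adjusted p = 4.75e-06). All 9 fibroblast markers reached a mean of 1 FPKM, with summed levels of 7925 to 9384 FPKM in NNMT libraries and 5657 to 6020.4 FPKM in control libraries, sums made up mostly of Col1a1 and Col1a2. Of these markers 4 were called higher, 2 were not called and 3 were called lower: Thy1 averaged 120.2 FPKM in NNMT cells and 257 FPKM in control cells, Vim 1044 FPKM in NNMT cells and 1515 FPKM in control cells, and Lum 2.08 FPKM in NNMT cells and 3.399 FPKM in control cells. The 6 epithelial markers summed to 0.284 to 0.383 FPKM in NNMT libraries and 0.493 to 1.13 FPKM in control libraries, with Epcam and Krt18 at 0. The 5 macrophage and leukocyte markers, of which Cd68 alone reached a mean of 1 FPKM, summed to 1.19 to 1.84 FPKM in NNMT libraries and 2.40 to 2.88 FPKM in control libraries. The 4 endothelial markers summed to at most 0.139 FPKM in NNMT libraries and 0.239 FPKM in control libraries, and the 4 skeletal muscle markers, with Myod1 and Myog at 0, to at most 0.745 FPKM in NNMT libraries and 0.608 FPKM in control libraries. The part of these markers in the results was not tested. In bulk RNA a lower share of some cells and less RNA per cell cannot be told apart.

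Of the 10 proteases, 5 rose in NNMT cells (Adam9, Adam10, Adam15, Adamts1 and Adamts12), Adam17 fell, and 4 (Adam12, Adam19, Adamts2 and Adamts5) did not pass the test. The groups differed so widely that 65.6% of all genes tested were called, 35.0% higher and 30.6% lower in NNMT cells. A count of 6 called of 10 is therefore close to the share over all genes. The median log2 fold change was 0.25 over the 10 genes, with a range from -0.23 to 1.12, and 0.03 over all genes tested. The NNMT and control libraries did not overlap for the 6 called genes and overlapped for the other 4. Over all genes tested, 69.9% did not overlap (37.2% with NNMT higher and 32.7% with NNMT lower). An exact two-sided permutation test gave each of the 6 called genes p = 0.1, the smallest p that 3 against 3 allows. It gave 0.3 to 0.8 for the other 4. Summed over the 10 genes, the level was 260.4, 242 and 256 FPKM in the NNMT libraries, against 205, 201 and 202 FPKM in the control libraries.

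**Figure D1:**
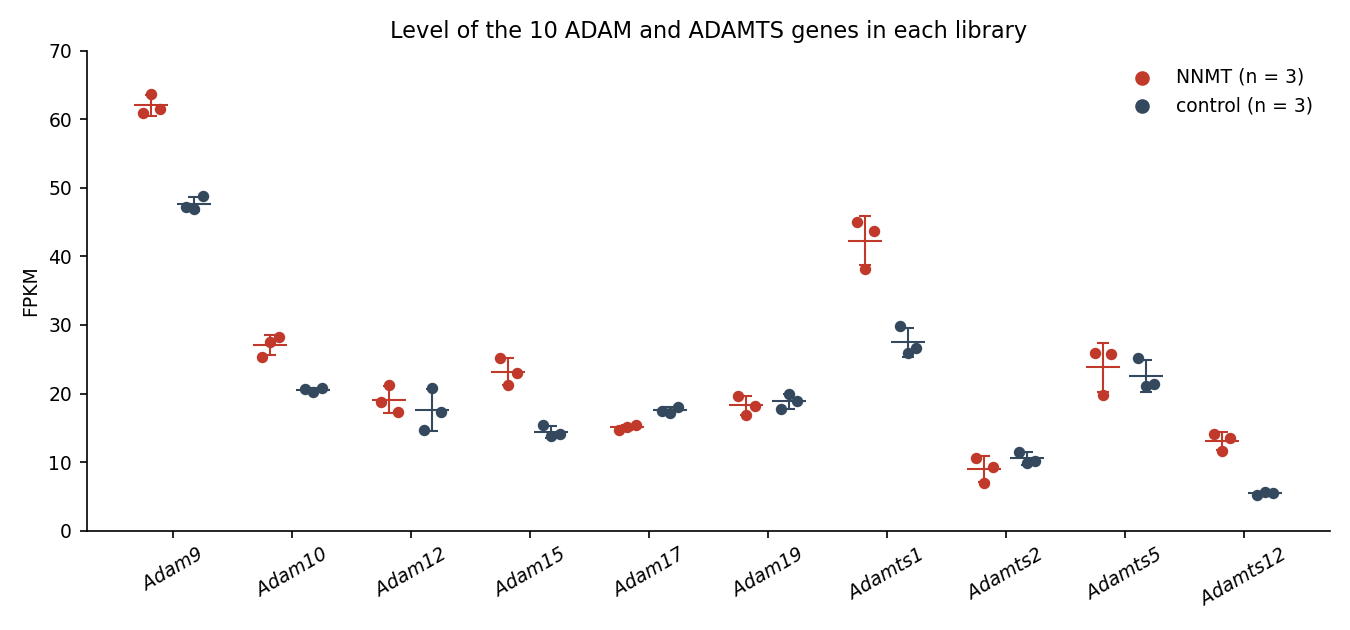
Level in FPKM (vertical axis) of the 10 proteases in each library, with 3 NNMT libraries (red) left of 3 control libraries (blue) for every gene; horizontal marks are means and bars are SD. Adam9 was the highest of the 10 in both groups, at 62.0 FPKM in NNMT cells and 47.6 FPKM in control cells, and Adamts12 shows the widest relative gap, 13.1 FPKM in NNMT cells against 5.45 FPKM in control cells.

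The order of levels was alike at the top and differed below it. Adam9 and then Adamts1 led in NNMT cells and in control cells, with ranges that did not overlap with the next gene. In NNMT cells the order after Adamts1 was Adam10, Adamts5, Adam15, Adam12, Adam19, Adam17, Adamts12 and Adamts2. Between neighbours, only the ranges of Adam10 with Adamts5, Adamts5 with Adam15 and Adam12 with Adam19 overlapped. Beyond neighbours, the range of Adamts5 also overlapped that of Adam12, while those of Adam10 and Adam15 were apart. In control cells the order after Adamts1 was Adamts5, Adam10, Adam19, Adam12, Adam17, Adam15, Adamts2 and Adamts12, and only the ranges of Adam19 with Adam12 and of Adam12 with Adam17 overlapped between neighbours. Adam15 thus had rank 5 in NNMT cells and rank 8 in control cells, and Adamts12 was the lowest of the 10 in control cells only.

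Promoter windows of 300 bases (250 before and 50 after the RefSeq start) were printed for 4 genes, the ADAMTS members with the largest rises and the sheddases that moved in opposite directions. They are from RefSeq on GRCm38.p6, which held entries for 7 of the 10 genes and none for Adam9, Adam12 and Adamts5. Capitals mark the GC box letters GGGCGG or, on the other strand, CCGCCC, and the TATA box letters TATAAA or, on the other strand, TTTATA; these motifs may overlap.
Adamts12 (chr15:11064523-11064822, plus strand): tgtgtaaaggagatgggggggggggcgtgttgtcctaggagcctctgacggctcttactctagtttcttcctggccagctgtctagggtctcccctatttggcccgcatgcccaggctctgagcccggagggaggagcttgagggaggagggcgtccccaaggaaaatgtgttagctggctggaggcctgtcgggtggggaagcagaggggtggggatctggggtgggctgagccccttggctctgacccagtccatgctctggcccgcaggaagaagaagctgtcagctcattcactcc
Adamts1 (chr16:85803064-85803363, minus strand): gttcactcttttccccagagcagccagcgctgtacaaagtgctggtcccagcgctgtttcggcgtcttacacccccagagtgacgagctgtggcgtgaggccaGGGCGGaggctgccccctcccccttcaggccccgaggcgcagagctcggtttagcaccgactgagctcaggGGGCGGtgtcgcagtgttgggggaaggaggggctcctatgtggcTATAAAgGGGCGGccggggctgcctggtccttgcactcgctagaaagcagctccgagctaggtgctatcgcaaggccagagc
Adam10 (chr9:70678732-70679031, plus strand): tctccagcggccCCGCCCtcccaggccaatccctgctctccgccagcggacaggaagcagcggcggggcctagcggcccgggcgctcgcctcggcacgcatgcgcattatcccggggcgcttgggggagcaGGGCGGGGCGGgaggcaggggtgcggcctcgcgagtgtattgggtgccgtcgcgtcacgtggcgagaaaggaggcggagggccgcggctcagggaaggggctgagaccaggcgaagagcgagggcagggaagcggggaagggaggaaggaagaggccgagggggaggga
Adam17 (chr12:21373583-21373882, minus strand): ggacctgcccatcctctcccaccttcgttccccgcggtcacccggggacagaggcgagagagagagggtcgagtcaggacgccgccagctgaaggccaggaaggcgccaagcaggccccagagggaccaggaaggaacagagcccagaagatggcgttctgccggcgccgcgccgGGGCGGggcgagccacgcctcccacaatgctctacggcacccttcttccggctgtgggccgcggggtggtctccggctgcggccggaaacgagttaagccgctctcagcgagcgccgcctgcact
Adamts1 held 3 GC boxes and a TATA box that begins 32 bases before the start, with 18 CpG dinucleotides. Adam10 held 3 GC boxes, some sharing bases, and 32 CpG, and Adam17 held 1 GC box and 30 CpG. Adamts12 held neither motif and 7 CpG. Over 32851 windows of the same length, 35.7% held a GC box and 13.6% a TATA box, with a median of 7 CpG. Adam10 and Adam17 thus both had CpG-rich windows, while Adamts12 stood at the median. Of the other members with entries, Adam15 held 25 CpG and Adamts2 held 41, and the windows of Adam19 held 5, 11 and 5. A link between these counts and the changes was not tested.

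Transcripts of the general sheddases ADAM10 and ADAM17 moved in opposite directions. Protein levels, maturation and shedding were not measured in these libraries. Adam10, on chromosome 9 (70678997 to 70780229 in GRCm38, plus strand), stood at 25.4, 27.5 and 28.2 FPKM in the NNMT libraries, against 20.6, 20.2 and 20.8 FPKM in the control libraries. The groups did not overlap, with all NNMT libraries higher, and had means of 27.0 ± 1.46 FPKM in NNMT cells and 20.5 ± 0.313 FPKM in control cells (log2 fold change 0.38, SE 0.0509, limma adjusted p = 9.39e-05). Adam17, on chromosome 12 (21323509 to 21373632, minus strand), stood at 14.7, 15.1 and 15.4 FPKM in the NNMT libraries, against 17.5, 17.1 and 18.1 FPKM in the control libraries. Here all NNMT libraries were below the control libraries, and the change was small, with means of 15.1 ± 0.370 FPKM in NNMT cells and 17.5 ± 0.495 FPKM in control cells (log2 fold change -0.21, SE 0.0471, limma adjusted p = 0.00291). The exons of Adam17 share 311 bases with those of Iah1 on the opposite strand, which averaged 12.5 FPKM in NNMT cells and 17.1 FPKM in control cells. The sources do not say whether the counting used strand, so reads of these genes may not be fully separated. The ratio of Adam10 to Adam17 within a library, which does not depend on the scaling of libraries, was 1.73, 1.82 and 1.83 in NNMT cells and 1.18, 1.18 and 1.15 in control cells (exact two-sided permutation p = 0.1, the smallest that 3 against 3 allows).

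The other membrane-anchored members rose or did not pass the test. Adam9, a widely expressed shedding enzyme, stood at 60.9, 63.7 and 61.5 FPKM in the NNMT libraries, against 47.2, 46.9 and 48.8 FPKM in the control libraries. The groups were far apart relative to their spread, although the rise was only 1.30-fold (log2 fold change 0.37, SE 0.0439, limma adjusted p = 3.64e-05). Adam15, whose disintegrin domain binds integrins, stood at 25.2, 21.3 and 22.9 FPKM in the NNMT libraries, against 15.4, 13.8 and 14.0 FPKM in the control libraries. Its rise of 1.604-fold (log2 fold change 0.64, SE 0.0668, limma adjusted p = 1.51e-05) was the largest among the ADAM members, and 647 of the genes tested rose by more. Its exons overlap those of 4731419I09Rik on the opposite strand, which averaged 0.0218 FPKM in NNMT cells and 0.0102 FPKM in control cells.

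Adam12 and Adam19, both active shedding enzymes of mesenchymal cells, were not called. Adam12 stood at 18.8, 21.2 and 17.4 FPKM in the NNMT libraries, against 14.7, 20.8 and 17.2 FPKM in the control libraries. The control libraries spread more widely than the NNMT libraries and the groups overlapped (log2 fold change 0.12, 95% interval -0.115 to 0.364, limma adjusted p = 0.331). Without control replicate 2, the highest of the control libraries, Adam12 was called higher (log2 fold change 0.24, limma adjusted p = 0.0419, against 0.0419 to 0.937 over 17 alternatives). Adam19 stood at 19.7, 16.9 and 18.2 FPKM in the NNMT libraries, against 17.8, 19.96 and 18.9 FPKM in the control libraries. These ranges also overlapped, and the 95% interval of the log2 fold change ran from -0.189 to 0.095 (limma adjusted p = 0.536).

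Among the secreted members Adamts12, a protease known to cut cartilage oligomeric matrix protein, changed most. It lies on chromosome 15 (11064790 to 11349231, plus strand) and stood at 14.1, 11.6 and 13.5 FPKM in the NNMT libraries, against 5.20, 5.68 and 5.46 FPKM in the control libraries. The lowest NNMT library was above the highest control library by a wide margin, and the rise was 2.40-fold, resting on 9141 recovered reads in NNMT libraries and 3559 in control libraries (log2 fold change 1.12, SE 0.0715, limma adjusted p = 5.09e-07). Of all genes tested, 197 rose by more. Adamts12 kept its call under all 17 alternatives, with log2 fold changes from 0.58 with a pseudocount of 10 to 1.245.

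Adamts1 and Adamts5, which lie next to each other on the minus strand of chromosome 16 (85793827 to 85803113 and 85856173 to 85901828), are both aggrecanases, and Adamts1 alone was called. It stood at 45.0, 38.2 and 43.7 FPKM in the NNMT libraries, against 29.9, 25.9 and 26.6 FPKM in the control libraries. Adamts1 rose 1.54-fold with no overlap between the groups (log2 fold change 0.60, SE 0.0718, limma adjusted p = 4e-05). Adamts5 stood at 25.97, 19.7 and 25.8 FPKM in the NNMT libraries, against 25.2, 21.1 and 21.4 FPKM in the control libraries. NNMT replicate 2 was the lowest of all 6 libraries, the groups overlapped and the gene was not called (log2 fold change 0.07, 95% interval -0.158 to 0.297, limma adjusted p = 0.567). Without that library Adamts5 was called higher (log2 fold change 0.20, limma adjusted p = 0.0337, against 0.0337 to 0.973 over 17 alternatives). The ratio of Adamts1 to Adamts5 was 1.73, 1.94 and 1.69 in NNMT cells and 1.19, 1.23 and 1.24 in control cells, with no overlap (exact two-sided permutation p = 0.1, the smallest possible here).

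**Figure D2:**
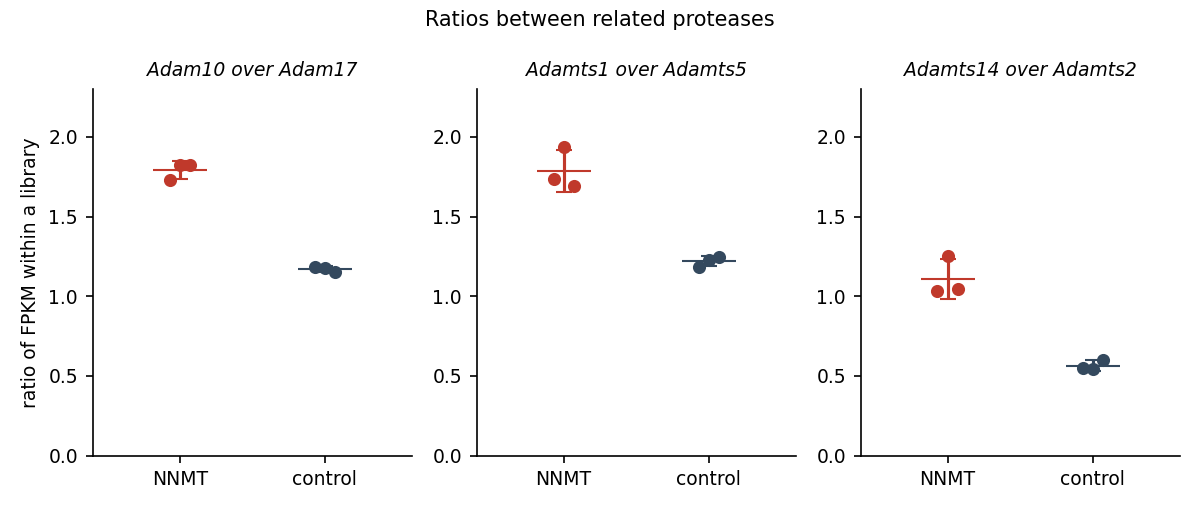
Ratio of FPKM of 2 genes within each library (vertical axis) for Adam10 over Adam17, Adamts1 over Adamts5 and Adamts14 over Adamts2, with 3 NNMT libraries (red) left of 3 control libraries (blue); marks are means and bars are SD. In each panel the NNMT libraries lie above the control libraries, with mean ratios in NNMT against control cells of 1.79 against 1.17, 1.79 against 1.22, and 1.11 against 0.564.

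Of the procollagen N-proteinases, Adamts14 rose and Adamts2 was not called. Adamts2 stood at 10.7, 6.97 and 9.23 FPKM in the NNMT libraries, against 11.5, 9.84 and 10.2 FPKM in the control libraries. The NNMT libraries spread widely and the gene was not called (log2 fold change -0.23, 95% interval -0.491 to 0.035, limma adjusted p = 0.113). It was called lower without the unnumbered NNMT library (-0.35, limma adjusted p = 0.0171, against 0.000152 to 0.407 over 17 alternatives). Without NNMT replicate 2, its lowest library, the change shrank to -0.076 (limma adjusted p = 0.407). For all 4 ADAMTS members replicate 2 was the lowest NNMT library and the unnumbered one the highest. Over all genes tested these shares, each taken alone, were 34.6% and 30.5%. Of the 6 ADAM members, replicate 2 was the lowest for 2 and the unnumbered library the highest for 2. Adamts14, an N-proteinase of the same type that is not among the 10, stood at 10.98, 8.71 and 9.64 FPKM in the NNMT libraries, against 6.33, 5.33 and 6.17 FPKM in the control libraries. It rose 1.65-fold (log2 fold change 0.63, limma adjusted p = 8.79e-05). The third enzyme of this type, Adamts3, had 0 reads in every library, where 3 counts would be at most 0.0216 FPKM in NNMT libraries and 0.0241 FPKM in control libraries. Adamts14 was thus above or level with Adamts2 in NNMT cells, at 1.030, 1.2502 and 1.044 times its level, and below it in control cells, at 0.548, 0.542 and 0.603 times (exact two-sided permutation p = 0.1, the smallest possible here). The summed level of the 3 genes overlapped between the groups, at 21.6, 15.7 and 18.9 FPKM in NNMT libraries and 17.9, 15.2 and 16.4 FPKM in control libraries.

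Transcripts of the listed fibrillar procollagens, some of which these N-proteinases cut, were higher. All 8 tested of 9 listed fibrillar procollagen genes rose, against 35.0% of all genes tested. Their log2 fold changes ran from 0.55 to 2.59 around a median of 0.94. The list does not hold every fibrillar procollagen gene and was chosen with earlier results of these data known. Col1a1, which encodes a chain of type I collagen, stood at 4028, 3341 and 3504 FPKM in the NNMT libraries, against 1852, 1885 and 1709 FPKM in the control libraries (limma adjusted p = 9.45e-07). Col5a3 and Col11a2, minor fibrillar chains, rose 8.61-fold and 5.004-fold, and Col5a2 rose 1.85-fold. Pcolce, which enhances removal of the carboxy-terminal propeptide, rose 1.87-fold to 266 ± 5.56 FPKM, against 143 ± 7.39 FPKM in control cells, and Bmp1, the enzyme that removes it, rose 1.37-fold. These were the 2 tested of 7 other procollagen processing genes. Tll1, a relative of Bmp1 that missed the filter, stood at 0, 0.0287 and 0.00558 FPKM in the NNMT libraries, against 0.817, 1.78 and 1.03 FPKM in the control libraries, from 6 reads in NNMT and 639 in control libraries. The groups did not overlap, and without the filter Tll1 was called lower (log2 fold change -1.10, limma adjusted p = 0.00114).

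Outside the 10 genes, few family genes were expressed. Of 43 other ADAM and ADAMTS genes, 20 were at 0 in all 6 libraries, 17 had some reads and missed the filter, and 6 were tested. Adam23, a member without protease activity that acts in cell adhesion, stood at 15.3, 11.7 and 15.0 FPKM in the NNMT libraries, against 6.78, 5.83 and 5.87 FPKM in the control libraries. Its 2.27-fold rise (log2 fold change 1.06, SE 0.0950, limma adjusted p = 5.36e-06) was close in size to that of Adamts12. The aggrecanase Adamts4 rose 1.39-fold to 3.27 ± 0.404 FPKM, against 2.36 ± 0.0857 FPKM in control cells. Adamts7, which like ADAMTS12 cuts cartilage oligomeric matrix protein, fell to 4.25 ± 0.472 FPKM in NNMT cells, against 5.59 ± 0.246 FPKM in control cells (log2 fold change -0.33, limma adjusted p = 0.00253). Adamts10, a protease of fibrillin microfibrils, fell to 12.1 ± 0.484 FPKM in NNMT cells, against 14.7 ± 0.343 FPKM in control cells (log2 fold change -0.26, limma adjusted p = 0.00101). Adamts6 averaged 1.82 ± 0.0377 FPKM in NNMT cells and 1.51 ± 0.151 FPKM in control cells and missed the threshold (limma adjusted p = 0.0588). It passed without control replicate 2 (limma adjusted p = 0.0402) and in the fit without trend and robust moderation (limma adjusted p = 0.0248). Adam8, below the filter over all libraries, stood at 1.08, 0.887 and 1.14 FPKM in the NNMT libraries and 0.544, 0.637 and 0.439 FPKM in the control libraries.

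**Figure D3:**
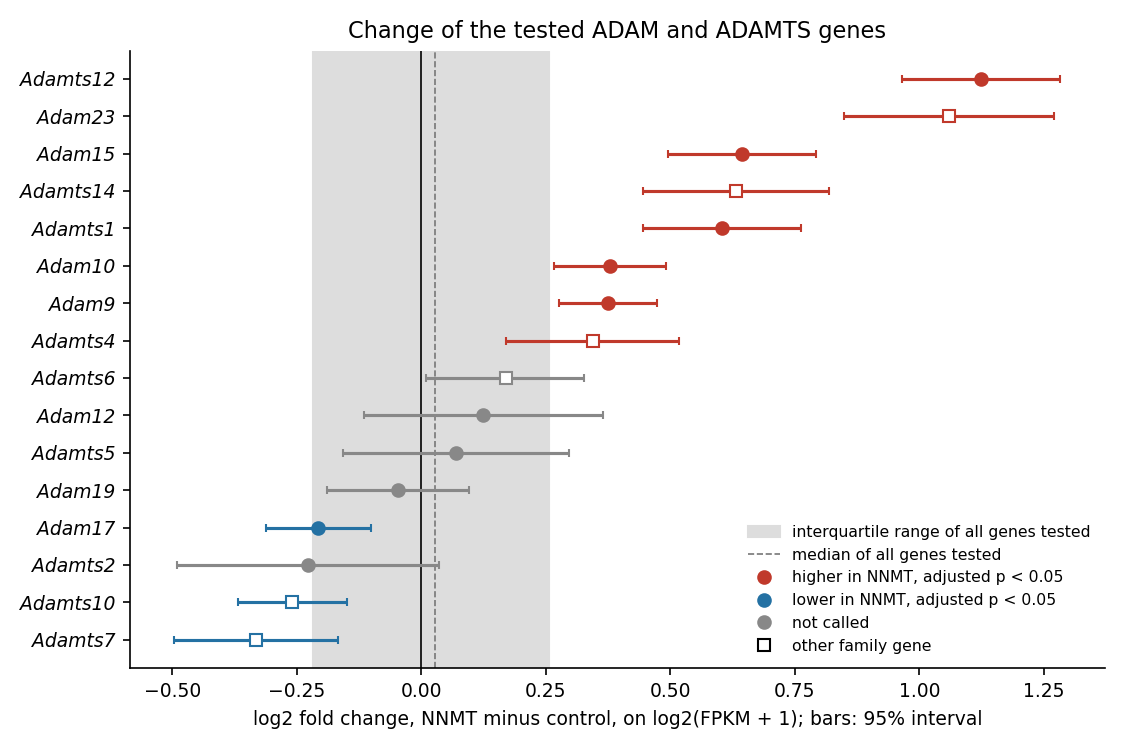
Log2 fold change (horizontal axis, NNMT minus control on log2(FPKM + 1)) of the 16 tested ADAM and ADAMTS genes, with 95% intervals; filled circles are the 10 genes of this account, open squares the other 6, and the grey band is the interquartile range of all genes tested. Adamts12 at 1.12 and Adam23 at 1.06 stand far to the right of the band, and the falls of Adam17, Adamts10 and Adamts7 end at -0.33.

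Genes that mature, carry or regulate ADAM proteins moved in both directions, with 2 of 8 tested higher, 3 lower and a median of -0.10. Over all genes tested, 35.0% were called higher and 30.6% lower. Rhbdf2 (iRhom2), which escorts ADAM17 to the cell surface, stood at 3.65, 3.80 and 3.56 FPKM in the NNMT libraries, against 1.82, 1.99 and 2.09 FPKM in the control libraries. This was a 1.87-fold rise (limma adjusted p = 1.08e-05), while its relative Rhbdf1 averaged 16.7 ± 0.731 FPKM in NNMT cells and 18.2 ± 0.556 FPKM in control cells and missed the threshold (limma adjusted p = 0.0539); it was called lower in 4 of 17 alternatives. Rhbdf1 thus stayed the more abundant iRhom transcript, with Rhbdf2 at 0.209 to 0.234 of its level in NNMT cells and 0.0968 to 0.118 in control cells. Furin, a convertase that removes ADAM prodomains, fell to 21.4 ± 1.67 FPKM in NNMT cells, against 29.2 ± 0.993 FPKM in control cells, and the convertase Pcsk7 rose 1.40-fold. Tspan5 and Tspan14, tetraspanins that carry ADAM10, fell by 0.27 and 0.26 on the log2 scale (Tspan14 with limma adjusted p = 0.00237).

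Of the inhibitors and clearance receptors, 2 of 5 tested rose, 2 fell and Timp3 was not called, where 35.0% of all genes tested rose and 30.6% fell. Timp3, the tissue inhibitor that acts most broadly on ADAM and ADAMTS enzymes, stood at 40.4, 31.5 and 37.4 FPKM in the NNMT libraries, against 35.8, 33.9 and 33.1 FPKM in the control libraries, with overlap (limma adjusted p = 0.408). Without NNMT replicate 2 it was called higher (log2 fold change 0.18, limma adjusted p = 0.0164, against 0.0164 to 0.989 over 17 alternatives). Timp1, an inhibitor of ADAM10 encoded on the X chromosome, fell to 124 ± 20.7 FPKM in NNMT cells, against 181 ± 9.96 FPKM in control cells, and Timp2 rose 1.19-fold. Lrp1, the receptor that takes up ADAMTS5 for degradation, fell to 95.8 ± 12.0 FPKM in NNMT cells, against 148 ± 29.9 FPKM in control cells (log2 fold change -0.61, limma adjusted p = 0.00248). Reck, a membrane-anchored inhibitor, was called higher by a small margin although its libraries overlapped (log2 fold change 0.25, limma adjusted p = 0.0341), and it lost this call in 7 of 16 alternatives. These were quantile normalization (adjusted p = 0.0569), no filter (0.0924), the threshold of 0.01, and the fits without control replicate 2 (0.133), control replicate 3 (0.0935), the unnumbered NNMT library (0.0691) or NNMT replicate 3 (0.137).

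Transcripts of proteins that ADAM10 or ADAM17 shed also went both ways, where 35.0% of all genes tested were called higher and 30.6% lower. Of 22 tested, 10 were higher and 8 lower, with a median of 0.00. The largest change was in Alcam, an adhesion molecule, which fell to 7.45 ± 1.38 FPKM in NNMT cells, against 25.6 ± 1.30 FPKM in control cells (limma adjusted p = 3.07e-07). Aplp2, a relative of the amyloid precursor protein, rose 1.69-fold, Il6st, the shared receptor chain of interleukin 6 cytokines, rose 1.93-fold, and the receptor kinase Axl fell to 204 ± 6.98 FPKM in NNMT cells, against 289 ± 4.34 FPKM in control cells. Among the EGF receptor family ligands, Hbegf fell to 13.9 ± 1.83 FPKM in NNMT cells, against 24.1 ± 2.25 FPKM in control cells (limma adjusted p = 3.9e-05), Nrg1 rose 1.27-fold, and Ereg, at 7.51 ± 1.62 FPKM in NNMT cells and 7.05 ± 0.370 FPKM in control cells, was not called. Of the 4 tested proteoglycans cut by ADAMTS enzymes, versican (Vcan) averaged 56.2 ± 3.33 FPKM in NNMT cells and 56.6 ± 1.36 FPKM in control cells (limma adjusted p = 0.852), and decorin (Dcn) missed the threshold (limma adjusted p = 0.0535) but was called higher without control replicate 1 or NNMT replicate 2 (adjusted p = 0.00926 and 0.0162). Fmod rose 11.7-fold to 4.84 ± 0.970 FPKM in NNMT cells, against 0.414 ± 0.0606 FPKM in control cells, and the X-linked Bgn fell to 745 ± 37.9 FPKM in NNMT cells, against 1229 ± 32.2 FPKM in control cells.

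**Figure D4:**
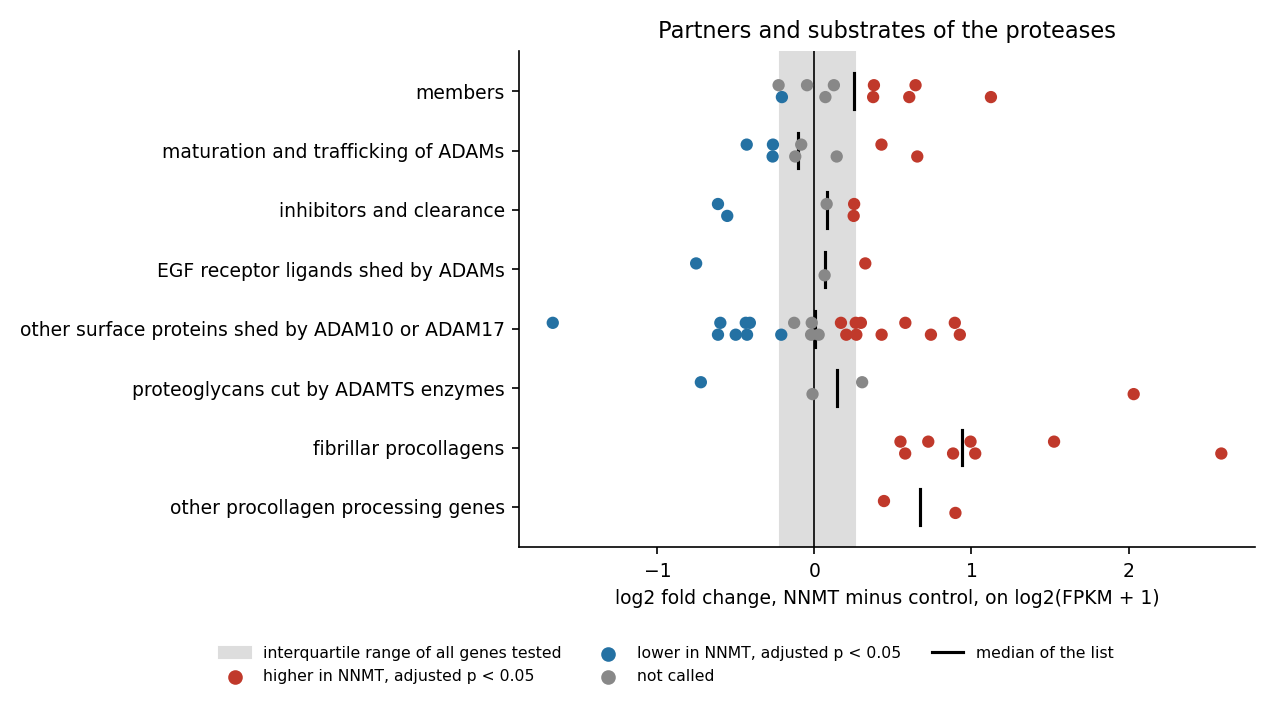
Log2 fold change (horizontal axis, NNMT minus control on log2(FPKM + 1)) of each tested gene in the list of 10 proteases and 7 lists of partners and substrates (rows); red points were called higher, blue points lower and grey points neither, black bars are list medians and the grey band is the interquartile range of all genes tested. All 8 tested fibrillar procollagens of the list lie right of the band. The 22 tested shed surface proteins spread from -1.67 to 0.93 around a median of 0.00.

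The changes of the 10 genes were also set beside those of the genes around them, since log2 fold changes shifted along several chromosomes in these libraries. For 9 of the 10 the sign matched that of the median over tested genes within 5 Mb, as it did for 68.8% of 10843 genes tested. Some of these windows overlap (Adamts1 with Adamts5, and Adam19 with Adamts2), so the 10 are not separate cases. Near Adamts1 14 of 16 other tested genes were called higher and none lower, against 35.0% and 30.6% of all genes tested. The median near Adamts1 was 0.48, and that of chromosome 16 was 0.29. Near Adamts5 16 of 17 were called higher, with a median of 0.51. Adamts1 itself lay 0.12 above its window's median and Adamts5 lay 0.44 below its own, the lowest value in the window and next to Mis18a at 0.09; both were named after their values were seen. Adam17 lay in a window where 14 of 23 genes were called lower and 4 higher, with a median of -0.33. Adam17 itself, at -0.21, lay 0.12 above that median and so fell less than it. Adamts12 lay 0.94 and Adam15 0.49 above medians of 0.18 and 0.15. The part of these regional shifts in the changes of single genes was not tested.

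**Figure D5:**
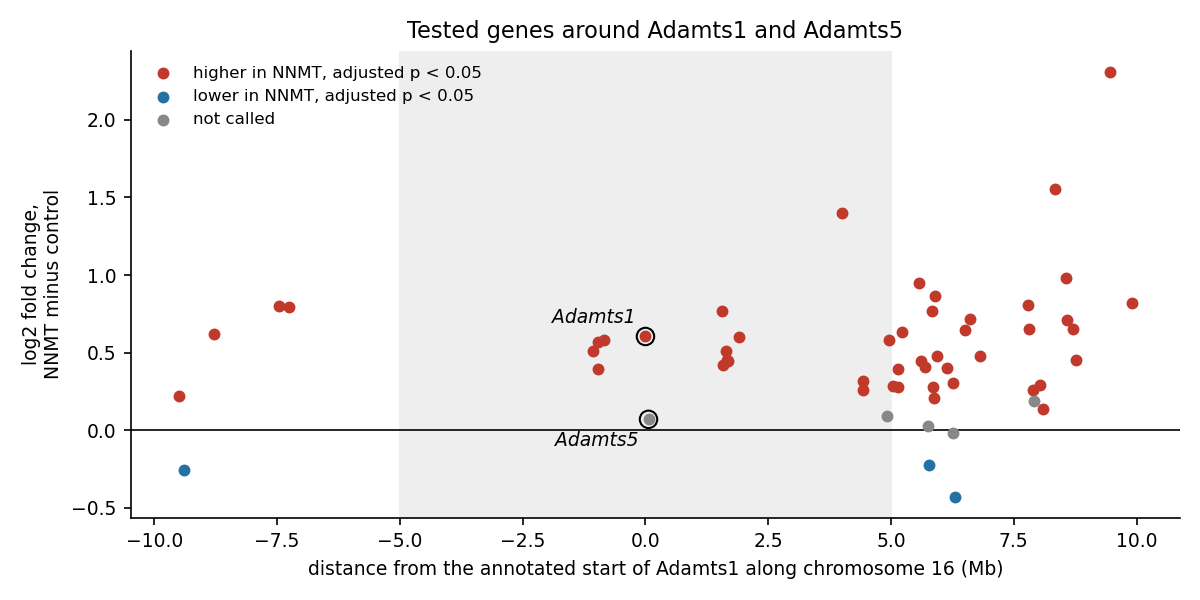
Log2 fold change (vertical axis, NNMT minus control) of tested genes by distance in Mb from the annotated start of Adamts1 (horizontal axis); the grey band marks the window of 5 Mb on either side, red points were called higher, blue lower and grey neither. Adamts1 at 0.60 lies among its neighbours, and Adamts5 at 0.07 and Mis18a at 0.09 are the lowest within 5 Mb.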

How the data were processed

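RNA sequencing of 6 libraries was deposited by the authors as 1 table whose header names the libraries but no unit. CASAVA, STAR 2.5 and mm10 are named in the submitters' processing notes. The counter and its strand setting were not stated. The deposited values were taken to be FPKM: within a gene they were whole multiples of a step, and whole reads were recovered for all 20528 genes above 0 (tolerance 0.01 of a read), with the longest GENCODE M21 transcript as the length for 71.1% and the smallest length that gave whole reads for 23.4%, Adamts5 and Adamts12 among them. They summed to between 31622601 and 39982568 per library. GENCODE M21 on GRCm38, the assembly named by mm10, paired 34490 of 35275 identifiers with symbols.

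Genes averaging 1 FPKM or more entered a limma 3.58.1 fit (R 4.3.3) of log2(FPKM + 1), the design fixed for normalized values (trend, robust, two-sided, Benjamini-Hochberg over 10882 genes, threshold 0.05). Folds are ratios of mean FPKM. Permutation tests used scipy 1.17.1. On simulated data the fit recovered 76% of 50 genes whose groups differed by 25%, 98% of 50 changed 1.5-fold and 96% of 50 changed 2-fold. That simulation gave every gene the same spread (dispersion 0.0024) and changed 200 of 10882 genes, where 65.6% were called in these data. It made 21 false calls. Its rates cannot be carried over to genes with a wider spread, such as Adam12 and Adamts2. The NNMT column without a number was used as the remaining NNMT library. The members and gene lists were chosen with earlier results of these data known. The genes named were all 10 members, other family genes averaging 1 FPKM or more in the higher group, and up to 4 genes per list by adjusted p; Timp3, Tspan14, Rhbdf1, Tll1 and Adamts3 were added after their values were seen. Alternatives were other normalizations, filters, pseudocounts and moderation, a threshold of 0.01, limma-voom on recovered reads, leaving out each library, and a replicate block.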

Additional observations from a re-analysis of the deposited data

How the results depend on the processing

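The calls of Adam9, Adam10, Adam15, Adam17, Adamts1 and Adamts12 and their directions held under all 17 alternatives, and between 5 and 6 of the 10 genes were called higher. Of the 10 genes, 1 was called lower, 1 to 2 when each library was left out in turn, and 3 with the replicate block. That block used the 4 libraries with a shared number. It also called Adamts2 (log2 fold change -0.29, limma adjusted p = 0.000152) and Adam19 (-0.14, adjusted p = 0.0386) lower, where the same 4 libraries without a block called only Adam17 lower, a fit chosen after seeing the data. Lrp1 had a log2 fold change of -0.67 in these 4 libraries with the block (adjusted p = 0.433) and without it (0.0291). Deviations from the group mean correlated at 0.21 between replicates 2 and at 0.11 between replicates 3, but also at 0.21 between NNMT replicate 2 and control replicate 3, 0.11 between NNMT replicate 3 and control replicate 1, and 0.31 between the unnumbered NNMT library and control replicate 1; no label says what a number shares. Log2 fold changes of genes that were not called changed sign for Adam19 between -0.10 and 0.004 and for Ereg between -0.086 and 0.156 when each library was left out, and for Vcan between -0.058 and 0.021, with 0.036 for the 4 libraries of the block with or without it; the cause was not tested. Over all genes 2883 to 4396 were called higher and 2609 to 3656 lower. Scaling by medians of ratios turned the balance of calls to 3565 higher and 3609 lower, against 3806 and 3334, and limma-voom to 3514 and 3656. With 3 libraries per group, a change that was not called may still be present: the intervals of Adam12, Adamts2 and Adamts5 are wide.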

Other observations

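The ADAMTS-like genes encode secreted relatives of ADAMTS proteins without a protease domain. Of 7, 2 were tested: Adamtsl4, which binds fibrillin microfibrils, rose 2.29-fold to 6.80 ± 0.562 FPKM in NNMT cells, against 2.96 ± 0.404 FPKM in control cells (limma adjusted p = 3.93e-06), and Adamtsl5 fell to 7.88 ± 0.123 FPKM in NNMT cells, against 9.29 ± 0.289 FPKM in control cells (limma adjusted p = 0.00363).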
